A study of Mus musculus with 12 samples.

Results

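Macrophages and monocytes are myeloid cells that engulf debris and microbes, present antigen and line the sinuses of lymph nodes. Their identity rests on the growth factor receptor Csf1r, on lysozyme and lysosomal enzymes, on secreted complement C1q and apolipoprotein E, and on surface receptors that signal through or against the adaptor DAP12. T cells are not known as a main source of these transcripts, and in a T cell sort they were read here as a gauge of myeloid RNA. The gauge is loose, since other cells than myeloid ones also make some of them, and which cells they came from was not tested. The 10 genes described here, of 26609 in the deposited table, were Apoe, Csf1r, Lyz2, C1qa, C1qb, C1qc, Ctsh, Lilrb3, Fn1 and Tyrobp, taken as the rows with those symbols. Each of the 10 was found once and passed the filter on low counts that left 13692 genes for testing.

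The libraries were made from regulatory T cells (Tregs), the CD4 T cells that restrain immune responses, sorted as CD4+CD25hiCD127lo singlets from the lymph nodes that drain the gut (mesenteric). The mice belong to SAMP/YitFC, an ileitis-prone inbred strain. Animals were labelled SAMP/YitFC-WT (wild type, WT) or SAMP/YitFC-ERb-KO, which lack estrogen receptor beta (gene Esr2) throughout the body, and male or female, with no treatment named and no age given. All 4 groups thus share the SAMP/YitFC background, and each combination of genotype and sex has 3 libraries, numbered here within the group. In the titles, WT male 2 and WT male 3 both carry the number 2. Whether each library is 1 animal is not in the labels, and p-values thus cover the spread between libraries alone, which may be technical.

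Group names below are those of the labels, and each direction drawn from them rests on those labels. Esr2 held 0 to 159 counts in the libraries labelled WT and 2 to 161 in those labelled KO, so its total did not follow the labelled genotype, and the labels do not name the part of the gene that was removed. Sex-linked transcripts went against the titled sex in 4 libraries (WT female 2, KO male 1, KO male 2 and KO female 1), and calls that changed without these 4 libraries are given beside the result. Total counts ran from 10.2 to 16.7 M per library, so that 1 count was worth 0.0585 to 0.0971 CPM (counts relative to library size, scaled by TMM). The sorted cells' own markers were abundant in every library, with Foxp3 at 755 ± 122 CPM, Il2ra at 788 ± 161 CPM and Cd3e at 980 ± 200 CPM (SD, n = 12).

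On GRCm38 (GENCODE M21) several members sit beside a relative. The 3 chains of complement C1q, which assemble into the recognition molecule of the classical pathway, form a cluster on the minus strand, with C1qb at chr4:136880129-136886187, C1qc at chr4:136889804-136893065 and C1qa at chr4:136895917-136898803. The gaps between them are 3616 and 2851 bases. Lyz2, the macrophage lysozyme (chr10:117277331-117282321), lies 5475 bases from Lyz1, and their open reading frames of 447 bases are 95.1% identical with an identical run of 118 bases, so counting could split reads between the pair. Tyrobp (chr7:30413760-30417585) lies 126 bases from Hcst, which encodes the related adaptor DAP10. Other members are Apoe (chr7:19696109-19699188), Ctsh (chr9:90054152-90076089), Fn1 (chr1:71585520-71653200) and Lilrb3, listed there as Pirb (chr7:3711409-3720391), an inhibitory receptor with close sequence relatives among the Pira genes.

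RefSeq start-site windows (GRCm38.p6) matched 5 of the 10 members, and 4 are printed to show the stretch just upstream of a pair of C1q chains, the lysozyme and the inhibitory receptor described next. They are C1qb (chr4:136886201-136886450), C1qc (chr4:136893066-136893164), Lyz2 (chr10:117282322-117282522) and Lilrb3 (chr7:3720392-3720632), all on the minus strand, written 5′ to 3′ and cut to the bases before the annotated exons. Capitals mark GAGGAA or its reverse complement TTCCTC, a purine-rich core of the kind bound by the myeloid factor PU.1.
C1qb: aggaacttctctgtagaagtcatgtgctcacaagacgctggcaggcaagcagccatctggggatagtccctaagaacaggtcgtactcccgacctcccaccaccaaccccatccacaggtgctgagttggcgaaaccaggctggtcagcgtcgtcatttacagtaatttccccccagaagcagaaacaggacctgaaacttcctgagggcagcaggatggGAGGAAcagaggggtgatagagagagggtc
C1qc: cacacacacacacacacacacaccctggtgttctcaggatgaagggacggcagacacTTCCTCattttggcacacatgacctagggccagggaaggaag
Lyz2: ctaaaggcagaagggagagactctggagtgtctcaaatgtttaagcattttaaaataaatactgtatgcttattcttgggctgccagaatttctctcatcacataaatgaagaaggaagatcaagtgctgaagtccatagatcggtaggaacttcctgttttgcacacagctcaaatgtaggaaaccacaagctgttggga
Lilrb3: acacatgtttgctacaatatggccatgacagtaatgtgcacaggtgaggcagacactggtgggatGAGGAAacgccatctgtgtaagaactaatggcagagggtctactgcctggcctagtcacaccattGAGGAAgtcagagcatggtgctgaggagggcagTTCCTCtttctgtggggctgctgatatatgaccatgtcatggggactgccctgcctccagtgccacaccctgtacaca
The 250 bases of C1qb and the 99 bases of C1qc held 1 match each, and the 241 bases of Lilrb3 held 3 matches. The 201 bases of Lyz2 held none. Over all 32851 promoters cut to the same lengths, 23.3%, 9.91%, 22.4% and 18.8% held a match at the C1qb, C1qc, Lilrb3 and Lyz2 lengths. The C/EBP-type motif TTGCNNAA (reverse complement TTNNGCAA, both strands searched, no overlap with the first) was in none of the 4 windows, against 9.56%, 4.08%, 9.32% and 8.17% of promoters at those lengths. A match is a string of letters in a window and not a measured binding site.

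Per length of exon, the members spanned a wide range of levels (RPKM, from CPM and the union of GENCODE M21 exons). Lyz2 stood highest, with mean levels of 72.4 ± 82.5 RPKM in the 6 WT libraries and 145 ± 55.7 RPKM in the 6 KO libraries (SD). Apoe, the lipid-carrying apolipoprotein, followed at 14.9 ± 14.1 and 26.4 ± 9.53 RPKM, and Tyrobp, which encodes DAP12, at 4.95 ± 3.56 and 13.2 ± 4.83 RPKM. C1qa, Csf1r, Ctsh, C1qb and C1qc had mean levels between 1.39 and 2.54 RPKM in WT and between 3.63 and 5.04 RPKM in KO, an order that their SDs do not separate. Lilrb3 (0.306 and 1.14 RPKM) and the long Fn1 transcript (0.0444 and 0.397 RPKM) were lowest.

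Csf1r, the receptor for the macrophage growth factors CSF1 and IL-34, was measured at 3.81, 0.90 and 2.75 CPM in WT male 1, 2 and 3 and at 34.2, 25.1 and 3.25 CPM in WT female 1, 2 and 3. It was measured at 11.5, 31.2 and 38.1 CPM in KO male 1, 2 and 3 and at 20.2, 22.95 and 47.8 CPM in KO female 1, 2 and 3. WT female 1 and 2 lay within the KO range, and WT female 3 lay with the WT males. Thus the low level belonged to 4 libraries, all 3 WT males and 1 of 3 WT females, and not to the WT label as a whole.

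The same 4 libraries were the lowest for 8 of the 10 members. Ordered this way were Apoe, Csf1r, Lyz2, C1qa, C1qb, Ctsh, Lilrb3 and Tyrobp, against 186 of 13692 tested genes (1.36%). The 4 libraries were singled out after the values were seen, from Csf1r, so this share is a description. The members' summed level was 62.8, 50.3 and 28.2 CPM in the WT males and 54.1 CPM in WT female 3. It was 393 and 367 CPM in WT female 1 and 2 and 197 to 470 CPM in the 6 KO libraries. In bulk RNA, fewer cells of a type and less RNA per cell cannot be told apart.

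**Figure D1:**
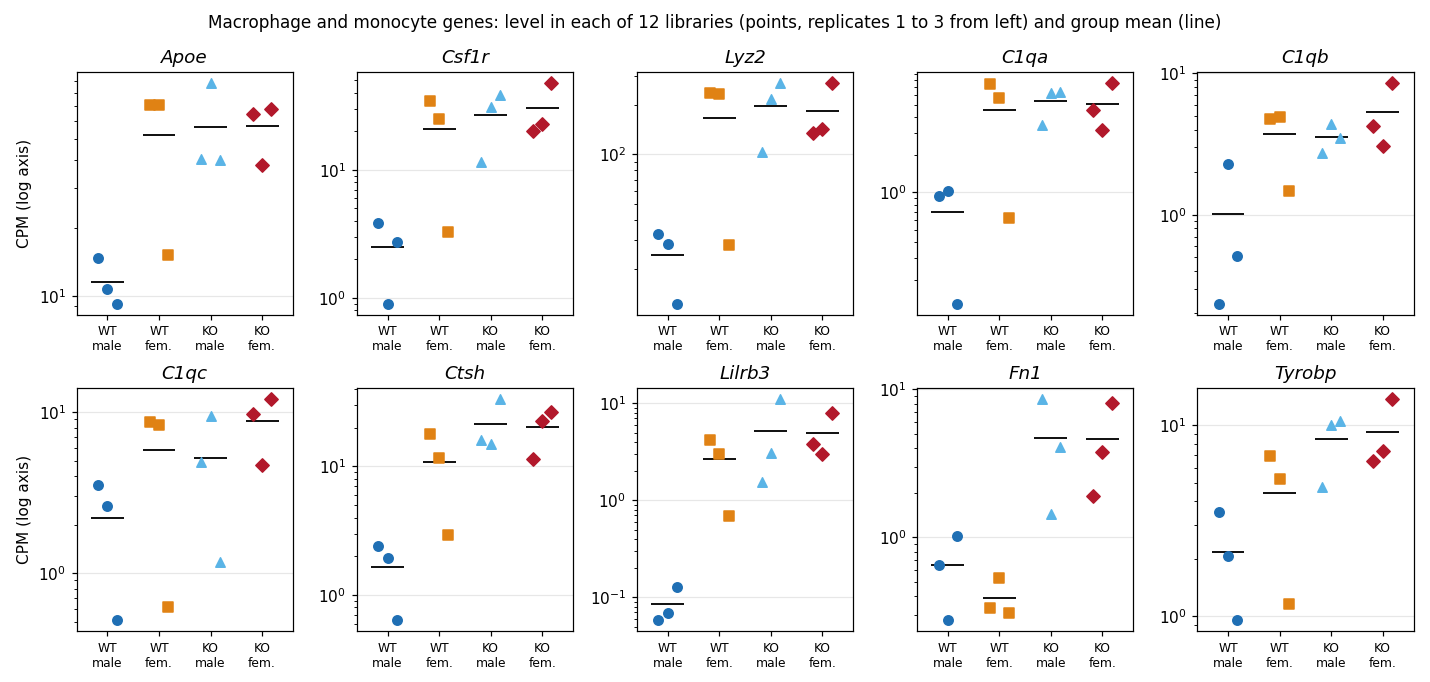
Level of each of the 10 members in every library (points, replicates 1 to 3 from left in each labelled group, CPM on a log axis) with the group mean (line). In 8 panels the 3 WT male points and WT female 3 sit below all other points, whereas Fn1 is below 1.03 CPM in all 6 WT libraries and C1qc is also low in KO male 3.

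Lyz2, which encodes an enzyme that cuts bacterial cell walls, was measured at 33.0, 28.3 and 12.3 CPM in the WT males and at 238, 232 and 27.9 CPM in the WT females. Its levels were 103, 218 and 272 CPM in the KO males and 135, 144 and 270 CPM in the KO females. The highest of the 4 low libraries, at 33.0 CPM, lay well under the lowest of the other 8, at 103 CPM. Its neighbour Lyz1 held 1 to 15 counts in the 3 WT males, and there were 12.9 to 411 Lyz2 counts per Lyz1 count over all libraries, so the counting assigned nearly all lysozyme reads to Lyz2.

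Apoe was measured at 14.7, 10.8 and 9.20 CPM in the WT males, at 70.9, 70.3 and 15.1 CPM in the WT females, at 40.5, 88.5 and 39.99 CPM in the KO males and at 64.4, 38.2 and 67.6 CPM in the KO females. The gap between the low and high libraries was again wide, but its order within the KO libraries differed from that of Csf1r, with KO male 3 among the lowest for Apoe and second highest for Csf1r.

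The C1q chains were at a few CPM. C1qa was measured at 0.94, 1.03 and 0.13 CPM in the WT males, at 7.42, 5.69 and 0.62 CPM in the WT females, at 3.47, 6.27 and 6.41 CPM in the KO males and at 4.59, 3.17 and 7.57 CPM in the KO females. C1qb had its 4 lowest values, 0.23 to 2.28 CPM, in the same 4 libraries and 2.75 to 8.57 CPM in the other 8. C1qc was measured at 3.51, 2.62 and 0.51 CPM in the WT males, at 8.63, 8.33 and 0.62 CPM in the WT females, at 4.93, 9.51 and 1.16 CPM in the KO males and at 9.72, 4.71 and 12.04 CPM in the KO females. KO male 3 thus departed from the pattern for 1 chain only, with 12 counts of C1qc beside 66 of C1qa and 36 of C1qb. Its ratio of 0.182 C1qc counts per C1qa count was the lowest of all libraries, the other 5 KO libraries lying between 1.42 and 2.12 and the 6 WT libraries between 1 and 4.

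Ctsh, which encodes the lysosomal protease cathepsin H, was measured at 2.40, 1.93 and 0.64 CPM in the WT males and at 17.8, 11.7 and 2.94 CPM in the WT females. In the KO males it was measured at 15.999, 15.1 and 33.4 CPM and in the KO females at 11.4, 22.6 and 26.4 CPM. Tyrobp, the adaptor that carries the activating motif for several myeloid and NK receptors, was measured at 3.51, 2.07 and 0.96 CPM in the WT males, at 6.89, 5.22 and 1.16 CPM in the WT females, at 4.77, 10.01 and 10.5 CPM in the KO males and at 6.48, 7.36 and 13.7 CPM in the KO females. For both genes WT female 1 and 2 overlapped the KO libraries and the 4 low libraries did not.

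Lilrb3 encodes PIR-B, a receptor for class I molecules that recruits phosphatases and so acts against DAP12-type signalling. It was close to the limit of detection in the WT males, with 1, 1 and 2 counts, or 0.06, 0.07 and 0.13 CPM. The WT females held 4.21, 3.04 and 0.70 CPM, the KO males 1.54, 3.10 and 11.1 CPM and the KO females 3.85, 3.00 and 8.03 CPM. Summed over libraries, the KO males held 176 counts, 114 of them in KO male 3, and the WT males held 4. The ratio was 56.8, with an exact 95% interval of 21.8 to 211. The interval takes counts as independent draws, which counts of amplified cDNA are not, and leaves out the spread between libraries.

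Fn1 encodes fibronectin, a matrix glycoprotein made by stromal cells and by some macrophages, and it followed the genotype label in every library. It was measured at 0.64, 0.28 and 1.02 CPM in the WT males and at 0.33, 0.53 and 0.31 CPM in the WT females. The KO males held 8.56, 1.44 and 4.08 CPM and the KO females 1.89, 3.77 and 8.12 CPM. The 6 KO libraries lay above the 6 WT libraries without overlap, as for 133 of 13692 tested genes (0.971%). Fn1 was the only member for which this was so. The separation was thin, with 20 counts in KO male 2 (1.44 CPM) and 16 in WT male 3 (1.02 CPM). In WT female 1 and 2, where Csf1r and Lyz2 were at KO levels, Fn1 had 5 and 8 counts.

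Averaged over the sexes, Ctsh, Lilrb3 and Fn1 were higher in the libraries labelled KO, and 7 members did not pass the test. The 3 of 10 compare with 83 of 13692 tested genes called higher (0.606%), in edgeR's quasi-likelihood test at an adjusted p under 0.05 over all genes. Log2 fold changes were 2.29 ± 0.41 for Ctsh (SE, adjusted p = 0.0227), 3.34 ± 0.61 for Lilrb3 (adjusted p = 0.0227) and 3.17 ± 0.55 for Fn1 (adjusted p = 0.0196). Csf1r had 1.98 ± 0.48 (adjusted p = 0.0528), Lyz2 1.57 ± 0.44 (adjusted p = 0.0976), Tyrobp 1.49 ± 0.42 (adjusted p = 0.0927) and Apoe 1.203 ± 0.33 (adjusted p = 0.0794). The C1q chains had 1.54 ± 0.53 for C1qa, 1.17 ± 0.50 for C1qb and 0.91 ± 0.59 for C1qc, with adjusted p from 0.164 to 0.490. All 10 values were above 0, with a median of 1.56 against 0.02 over all tested genes. At an unadjusted p under 0.05 there were 9 of 10 members, against 1073 tested genes called higher at that level (7.84%).

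Each of these 3 calls was lost in some fits that left out 1 library. The log2 fold changes stayed at 2.05 to 2.56 for Ctsh, 2.76 to 3.58 for Lilrb3 and 2.78 to 3.41 for Fn1. Leaving out 1 library at a time kept the call of Fn1 in 10 of 12 fits, of Ctsh in 8 and of Lilrb3 in 7, with adjusted p of at most 0.0744 (edgeR). Without KO female 3 none of the 3 was called (adjusted p = 0.0744 for each). Without KO male 1 the 3 calls stood and Csf1r was called as well (adjusted p = 0.0457). Only 1 was called without WT male 2 or WT male 3 (Fn1), without WT female 2 (Fn1) or without WT female 3 (Ctsh). Without the 4 libraries whose sex-linked transcripts went against their titles, the calls were not kept and KO male 3 was the only KO male left. The log2 fold changes were larger there, at 2.76 for Ctsh, 3.999 for Lilrb3 and 3.38 for Fn1. KO male 3 had the highest Ctsh and Lilrb3 levels of all libraries.

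In males, where all 3 WT libraries belong to the low 4, the differences were larger than averaged over the sexes for every member but Fn1. KO male 1 and 2 held 3864 and 1016 Xist counts and 0 Y-linked counts, whereas the WT males held 0 to 16 Xist counts. The comparison thus mixes the genotype label with the sex read from transcripts. Ctsh had a log2 fold change of 3.68 ± 0.62 and Lilrb3 of 5.79 ± 0.99, both at an adjusted p of 0.0477 (edgeR), and these 2 members were among 8 genes called higher (0.0584%) and 10 in either direction (0.0730%). Csf1r (3.42), Lyz2 (3.01), C1qa (2.93), Fn1 (2.83), Apoe (2.29), Tyrobp (1.94), C1qb (1.82) and C1qc (1.24) did not pass, with adjusted p from 0.0794 to 0.540. The median over the members was 2.88 against 0.01 over all tested genes, and 9 of 10 had an unadjusted p under 0.05 against 1084 genes called higher at that level (7.92%). In 9 of 10 members every KO male library lay above every WT male library, against 952 tested genes (6.95%), and the exception was C1qc. Neither call survived the loss of WT male 1, 2 or 3, WT female 2, KO male 1 or 3, or KO female 2 or 3, with adjusted p between 0.0504 and 0.215 there. Without KO female 1 the call of Lilrb3 was lost as well (adjusted p = 0.0705). With WT male 2 and 3, which share a title number, summed, neither was called (edgeR adjusted p = 0.191 for Ctsh and 0.204 for Lilrb3). Without WT female 3 or KO male 2 the number called rose to 5.

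In females no member was called, and no gene at all was (0%). Fn1 had the largest value, 3.51 ± 0.79 (SE, edgeR adjusted p = 0.459), and the other members lay between 0.12 for Apoe and 1.04 for Tyrobp. Fn1 was the only member at an unadjusted p under 0.05, against 402 tested genes called higher at that level (2.94%), and the only one whose groups did not overlap, against 1260 tested genes (9.20%). DESeq2 called Fn1 and no other member in this comparison. Without WT female 3 the log2 values of Apoe, Lyz2 and C1qa turned to -0.31, -0.36 and -0.35, and without KO female 3 those of Apoe, Lyz2, C1qa and C1qb turned to -0.029, -0.26, -0.24 and -0.020. The other 6 members kept a value above 0 in each fit that left out 1 library.

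**Figure D2:**
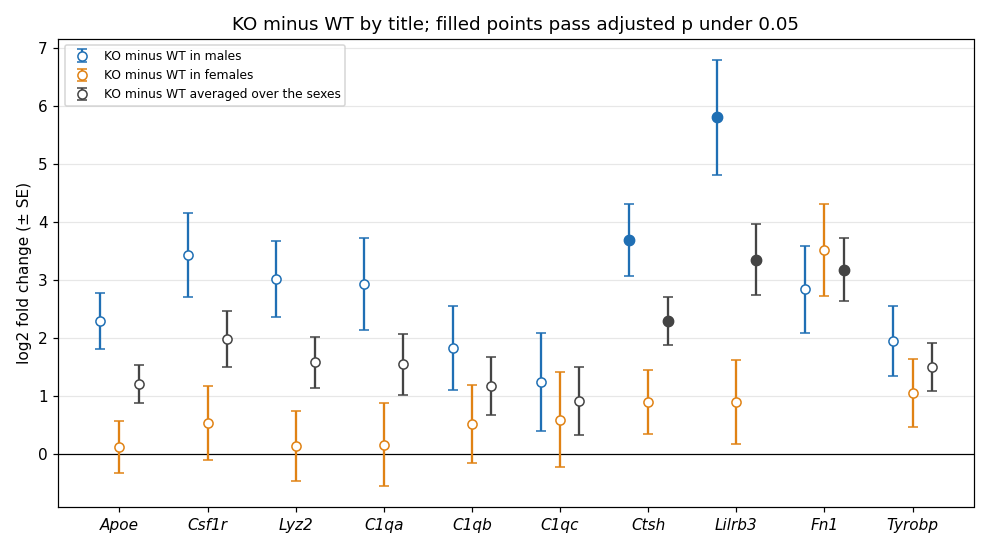
Log2 fold change of each member, KO minus WT by label, in males, in females and averaged over the sexes (points, bars ± SE, filled where edgeR's adjusted p is under 0.05). Only Ctsh and Lilrb3 (males and average) and Fn1 (average) are filled. Fn1 alone has a female value above its male value, 3.51 and 2.83.

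Sex here is that of the titles, which sex-linked transcripts went against in 4 libraries. The difference of the KO effect between the sexes was tested itself and passed for no member or other gene (edgeR, 0%). Values were -4.90 ± 1.21 for Lilrb3, -2.89 ± 0.95 for Csf1r, -2.87 ± 0.88 for Lyz2, -2.79 ± 0.81 for Ctsh, -2.78 ± 1.06 for C1qa and -2.17 ± 0.65 for Apoe on the log2 scale, each with an adjusted p of 0.900. These 6 members had an unadjusted p under 0.05, against 659 tested genes (4.81%), and DESeq2 called none. Female minus male over both genotypes also passed for no member (edgeR and DESeq2). At an unadjusted p under 0.05 there were 7 members, all higher in the libraries labelled female, against 529 tested genes (3.86%), and Lilrb3 had the largest value at 2.38 ± 0.61.

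How the members vary together was read within the 6 KO libraries, because the 12 libraries fall into separate clusters of low and high level. Over the 45 pairs the median Pearson r of log2(CPM + 1) was 0.52, with a range from -0.59 to 0.99, and 35 pairs were positive. By exact permutation 10 pairs had p under 0.05 and 0 did after adjustment over the 45 pairs, the smallest adjusted p being 0.0625. The median moved to 0.35 without KO female 3 and to 0.74 without KO male 3.

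Csf1r, Lyz2 and Tyrobp formed the tightest set. Csf1r and Tyrobp had r = 0.99 (exact permutation p = 0.00139, the smallest that the 720 orders can give, adjusted p = 0.0625) and rho = 1.00 (exact p = 0.00278, adjusted 0.125), and r was 0.98 without the 2 libraries farthest from the Csf1r median. Csf1r and Lyz2 had r = 0.97 (exact p = 0.00278, adjusted 0.0625) and rho = 0.94 (exact p = 0.0167, adjusted 0.25), and r was 0.99 without 2 libraries. In counts, the KO libraries held 5.66 to 8.96 Lyz2 counts and 0.275 to 0.415 Tyrobp counts per Csf1r count, a narrow span for genes whose Csf1r base ranged from 142 to 524 counts. Lyz2 and Tyrobp had r = 0.97 (exact p = 0.00417, adjusted 0.0625) and rho = 0.94 (exact p = 0.0167, adjusted 0.25). C1qa and Lilrb3 varied with these 3 genes at r of 0.80 to 0.90 (exact p from 0.0222 to 0.0611, adjusted 0.205 to 0.25) and rho of 0.77 to 0.83.

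Fn1 and C1qc had the lowest median r with the other members in the KO libraries. With 6 libraries a low r cannot show that genes vary apart. The median r of Fn1 with the other 9 members was -0.07, and that of C1qc was 0.03. Fn1 counts per Csf1r count ran from 0.0462 in KO male 2 to 0.746 in KO male 1. KO male 1 had the lowest Csf1r of the KO libraries and the highest Fn1. C1qc had its highest r with Apoe (0.76, exact permutation p = 0.0486, adjusted 0.219, rho = 0.77 with exact p = 0.103, adjusted 0.356, r of 0.87 without 2 libraries) and its lowest with Ctsh (-0.59, exact p = 0.226, adjusted 0.443, rho = -0.43 with exact p = 0.419, adjusted 0.699, r of -0.79 without 2 libraries).

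**Figure D3:**
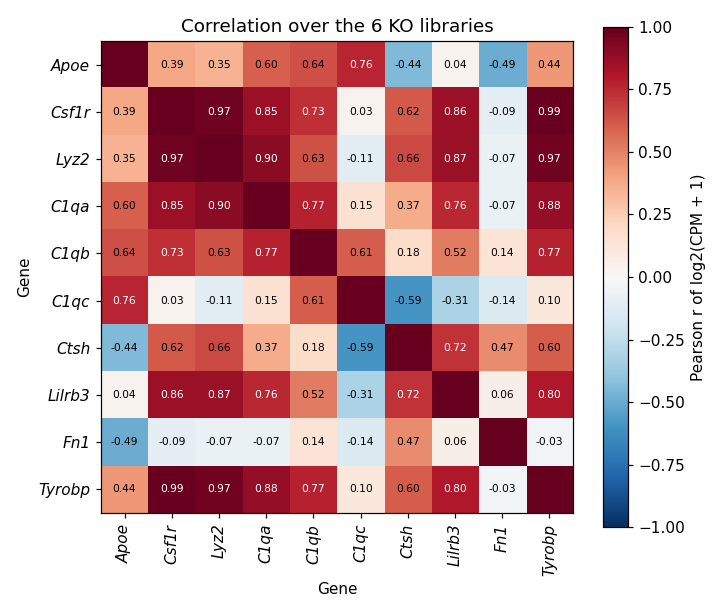
Pearson r of log2(CPM + 1) for each pair of members over the 6 KO libraries (colour scale from -1 to 1, value in each cell). Csf1r, Lyz2 and Tyrobp share r of 0.97 to 0.99, and the row of Fn1 lies between -0.49 and 0.47.

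**Figure D4:**
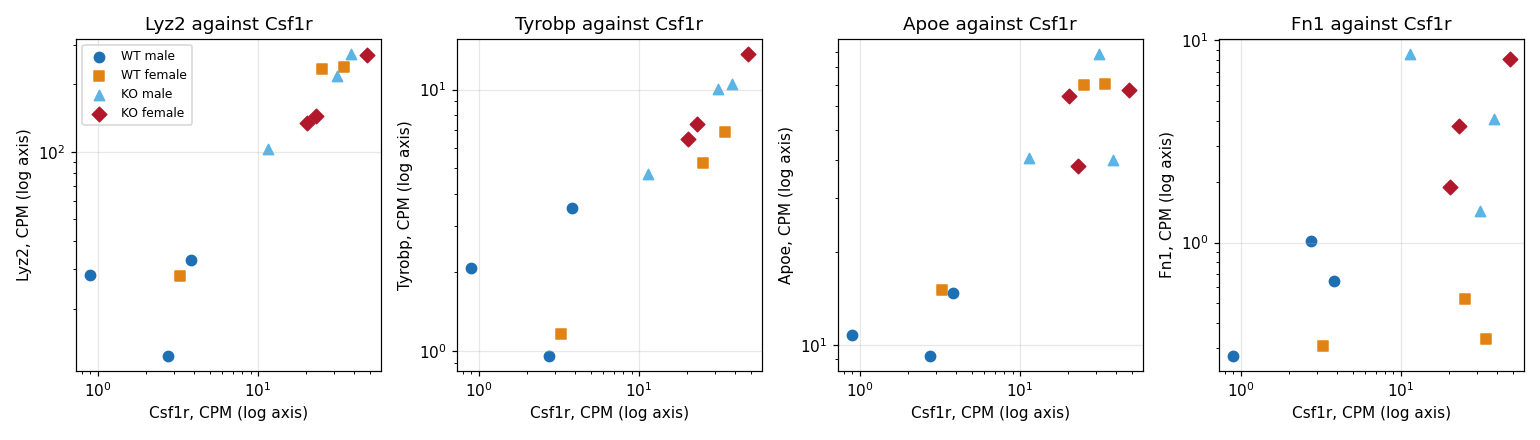
Levels of Lyz2, Tyrobp, Apoe and Fn1 against Csf1r in the 12 libraries (CPM, log axes, shape and colour give the labelled group). Lyz2 and Tyrobp climb with Csf1r through the KO libraries, the 4 low libraries sit apart at the lower left for Lyz2, Tyrobp and Apoe, and for Fn1 the 2 WT females with high Csf1r lie below 1 CPM.

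Other genes of macrophages and monocytes gave few calls. Of 30 listed, 24 were tested for the genotype difference over both sexes, 1 was higher (Ly6c2, a monocyte surface protein, 1.97 ± 0.36, edgeR adjusted p = 0.0227) and 1 was lower (Cybb, a subunit of the phagocyte oxidase, -0.64 ± 0.14, adjusted p = 0.0380), with 19 of 24 values above 0 and a median of 0.60. DESeq2 called 5 higher and 2 lower. Over all tested genes 206 were called in either direction (1.50%). Both calls were lost without WT male 2 or 3, WT female 2 or 3, or KO female 3, and without the 4 libraries opposite to their titled sex. The 4 low libraries were the lowest for 3 of the 24. The summed level of the list was 273 to 384 CPM in KO and 334 to 463 CPM in WT. It thus went the other way from the members' sum. Most of it was Cybb, Ccr2 and Cebpb, so it says little of the other listed genes. In the 4 low libraries Cybb was at 111 to 177 CPM, Ccr2 at 91.6 to 176 CPM and Cebpb at 40.5 to 67.4 CPM. Which cells these 3 transcripts came from was not tested. Ly6c2 was at 3.28 ± 1.76 CPM in WT and 12.96 ± 5.04 CPM in KO, and Cybb at 146 ± 21.8 and 93.4 ± 16.8 CPM (SD, n = 6 each).

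Markers of tissue macrophages differed in level and between libraries. Siglec1 reached 9.94 CPM, Marco 8.72 CPM and Emr1 (the gene of F4/80) 6.02 CPM, each with 0 counts in 1 library, and Cd68 ran from 1.66 to 10.9 CPM. Vsig4 had no count in 8 libraries and Trem2 none in 9, Cd163 did not exceed 0.535 CPM and Cd14 did not exceed 1.92 CPM. KO male 3, with 38.1 CPM of Csf1r and 272 CPM of Lyz2, had 0 counts of Emr1, Marco, Timd4, Mertk and Cd163. With counts taken as independent draws, that allows up to 0.291 CPM of each (3 counts). Mertk and Cd163 each had 0 counts in 3 libraries. Other markers of the list were present in KO male 3, among them Itgam (10.1 CPM), Cd68 (7.47 CPM), Aif1 (6.99 CPM) and Siglec1 (2.52 CPM). The same library had the highest Sfpi1 (the gene of PU.1, 20.2 CPM) and Fcer1g (18.4 CPM) of all. KO female 3, with 47.8 CPM of Csf1r, held 66 counts of Emr1 and 84 of Marco. These genes were named after their values were seen. Libraries with like levels of Csf1r, Lyz2 and Tyrobp therefore differed in some of the macrophage markers beside them.

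Pathways around each member were read from lists. Among 15 tested genes of DAP12 and related signalling, 1 was higher averaged over the sexes, the adaptor Lat2 at 1.68 ± 0.38 (edgeR adjusted p = 0.0403), none was lower, and the median was 0.82. None of 12 tested inhibitory receptors and their phosphatases was called (edgeR), though their median was 1.58 and 7 had an unadjusted p under 0.05, against 2183 of all tested genes (15.9%). Their most abundant genes, Ptpn6 and Ptpn11, which T cells also express, had 0.37 ± 0.17 and -0.29 ± 0.17. None of the 12 tested genes of the CSF1 axis was called, with 5 at an unadjusted p under 0.05, and the ligand Csf1 had -0.42 ± 0.21. DESeq2 called 3 genes of DAP12 signalling, 4 inhibitory receptors or phosphatases and 3 genes of the CSF1 axis, all higher. With edgeR, no gene of DAP12 signalling was called in 9 of 12 fits that left out 1 library, the exceptions being those without WT male 1, KO male 1 or KO male 2, and none was called without the 4 libraries opposite to their titled sex.

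The remaining pathway lists held no call in that comparison (edgeR). Of 14 tested complement genes 3 had an unadjusted p under 0.05 and the median was 0.23, of 11 genes of APOE-related lipid handling there were 3 and 0.34, of 18 lysosomal genes 7 and 0.18, and of 11 genes of fibronectin receptors and matrix 1 and 0.21. Ctsh ran from 0.639 to 33.4 CPM, far below the most abundant gene of the lysosomal list, so the 2 were not compared at like levels. Ctsb, the most abundant, was at 749 ± 107 CPM in WT and 753 ± 103 CPM in KO (SD, n = 6 each, log2 fold change 0.01 ± 0.13), and the 4 low libraries of the members were the lowest for 0 of the 18. DESeq2 called 0, 1 (higher), 2 (higher) and 0 genes of these 4 lists.

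Markers of other cells moved with the members, and their part in the members' differences was not tested. B-cell genes were called higher in KO averaged over the sexes in 8 of 15 tested (edgeR, none lower), among them Cd22 (2.51 ± 0.37) and Ms4a1 (3.24 ± 0.48), each at an adjusted p of 0.0106. The number called was 3 without WT male 2, WT male 3, WT female 2 or KO female 3, 5 without WT female 3 or KO male 3, and 1 without the 4 libraries opposite to their titled sex. The 4 low libraries of the members were also the lowest for 12 of these 15 genes. Their summed level was 55.7 to 80.6 CPM in those 4 libraries, 276.7 and 165 CPM in WT female 1 and 2, and 216 to 486 CPM in KO. Dendritic cell genes were called higher in 2 of 14 tested, Cd74 (1.38 ± 0.26, adjusted p = 0.0244) and H2-Ab1 (1.61 ± 0.31, adjusted p = 0.0247). Neither was called without WT male 2, WT male 3, WT female 2, KO male 3 or KO female 3, or without the 4 libraries opposite to their titled sex. Dendritic cell genes summed to 353 to 393 CPM in the 4 low libraries, 938 and 734 CPM in WT female 1 and 2, and 817 to 1809 CPM in KO. Cd74 alone ran from 197 to 1230 CPM over the libraries, so these sums follow that gene closely. The median log2 fold change of the 14 was 0.44 averaged over the sexes. In females it was -0.18, with 6 of 14 above 0.

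The summed level of neutrophil and mast cell genes followed the genotype label, as Fn1 did. It was 0.690 to 8.36 CPM in WT and 12.2 to 61.2 CPM in KO. Of 9 tested, 4 were called higher in KO (Ngp, S100a9, S100a8 and Lcn2, edgeR) and none lower. With 1 library left out 1 or 2 were called, except 4 without KO male 1, KO male 2 or KO female 2. For 2 of the 9 every KO library lay above every WT library. The 4 low libraries were the lowest for 0 of 9. The 4 called genes could not show that order, since each had 0 counts in 5 libraries. Plasma cell genes had 1 higher (2010001M09Rik) and 1 lower (Prdm1) of 7 tested, and neither was called without the 4 libraries opposite to their titled sex. None of 11 NK and CD8, 8 stromal and endothelial, 3 erythroid and platelet and 9 Treg and T cell genes was called (edgeR), with 3, 5, 0 and 2 at an unadjusted p under 0.05, and DESeq2 called 1, 1, 0 and 1. The Treg and T cell genes summed to 4313 to 5318 CPM in WT and 4849 to 5850 CPM in KO, against 28.2 to 470 CPM for the members.

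**Figure D5:**
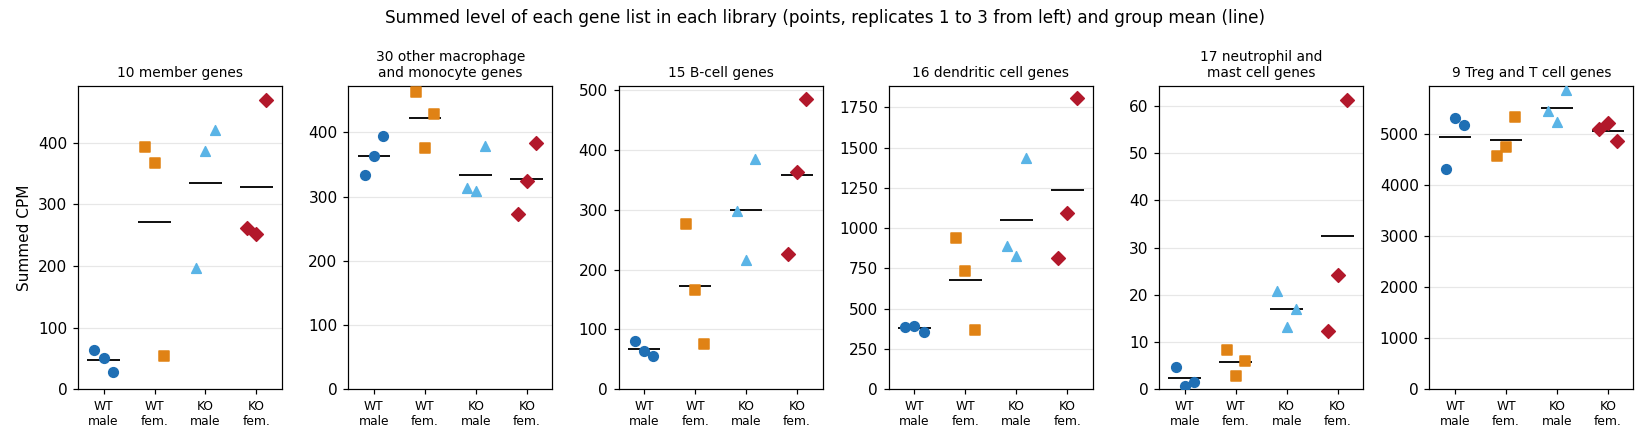
Summed level (CPM, axes from 0) of the members and of lists of other cell types in every library (points) with the group mean (line). The members, the B-cell genes and the dendritic cell genes are low in the 3 WT males and WT female 3, the neutrophil and mast cell genes are low in all 6 WT libraries, and the Treg and T cell genes lie between 4313 and 5850 CPM throughout.

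Outside the members, genes whose level followed the members' mean standardised level most closely over the 12 libraries included Ifi30, H2-Ab1, Ciita, Faim3, Pld4, Blnk and Mef2c. Their r lay between 0.95 and 0.97, and all 7 had the same 4 lowest libraries, so that this likeness largely restates the split into low and high libraries. Over the 6 KO libraries alone r fell to 0.86 for H2-Ab1, 0.81 for Ifi30 and 0.79 for Ciita, the class II transactivator, and to between 0.41 and 0.66 for the other 4. H2-Ab1, a class II chain, was at 21.6 CPM in its lowest library and 224 CPM in its highest.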

How the data were processed

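RNA-seq of sorted Tregs was read from 2 deposited tables. The authors deposited raw counts per gene symbol for 26609 genes, and log2 values for 24584, which matched log2 CPM rebuilt with edgeR's TMM and a prior count of 0.25 to within 5.0e-14. The submitters' processing notes name GRCm38, edgeR, HISAT2 2.0.5, Subread and featureCounts 1.5.0-p2. For annotation release and strand setting, nothing is given in the sources used here. Per the labels' protocols, cDNA came from SMART-Seq v4 and libraries from Nextera XT, which does not mark strand, so overlapping genes cannot be told apart. Counts of amplified cDNA are not independent molecules.

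Counts were filtered by filterByExpr (13692 genes, at least 99.8% of counts) and scaled by TMM. One edgeR 4.0.16 quasi-likelihood model of 4 group means over all 12 libraries (R 4.3.3, common biological coefficient of variation 29.3%) gave 5 two-sided comparisons, with Benjamini-Hochberg adjustment over all tested genes and a threshold of 0.05. The steps were tested on simulated data. Alternatives were DESeq2 1.42.0, its size factors in edgeR, no filter, limma 3.58.1 on the deposited log2 values, the title number as a block, and subsets of libraries. Correlations used log2(CPM + 1) and exact permutation (Python 3.11, scipy 1.17.1). Giving them over the KO libraries alone was decided after seeing the data. The members and lists were chosen with earlier results of these data known. From each list at most 3 genes are named, the called ones with the smallest p or, with none called, the 2 most abundant. Genes named for likeness had a mean of at least 1 CPM. Some genes that these rules select are not reported here. In list matching some older symbols were used (Emr1 for Adgre1, Sfpi1 for Spi1).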

Additional observations from a re-analysis of the deposited data

Results flagged for a closer look

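The C1qb level of KO female 3, at 8.57 CPM, stood apart from the other 5 KO libraries, which lay between 2.75 and 4.39 CPM. The gap to the nearest library was 0.717 of the whole range of the 6, above the 95% critical ratio for 6 values. In all, 20 groups of 6 libraries were examined, of which chance alone would mark about 1 in 20. The same library had the highest C1qa, C1qc, Csf1r and Tyrobp levels of all 12.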

How the results depend on the processing

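The number of members called over both sexes by genotype, 3 as reported, was 7 with DESeq2, 8 with no low-count filter, 0 without the 4 libraries opposite to their titled sex and 1 with WT male 2 and 3, which share a title number, summed. It was 0 to 4 when 1 library at a time was left out. Over all genes the 206 called became 644, 627, 14 and 31, and 12 to 543 with 1 library left out. In males the 2 members called became 8 with DESeq2, 8 with no filter, 0 with the 2 libraries summed and 0 to 5 with 1 library left out. The 10 genes called there became 420, 443, 0 and 0 to 734, and 135 without the 4 libraries. In females 0 members became 1 with DESeq2 and 1 with no filter, and 0 genes became 22, 132 and, with 1 library left out, 0 to 2. For female minus male, 0 members became 5 with no filter, and 0 genes became 5 with DESeq2, 149 with no filter, 6 without the 4 libraries and 0 to 40 with 1 library left out. For the interaction, 0 members became 5 with no filter, and 0 genes became 3 with DESeq2, 106 with no filter and 0 to 4 with 1 library left out. The cause of these shifts was not tested. With DESeq2's size factors in edgeR and with limma on the deposited log2 values the counts of members were as reported in all 5 comparisons.

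Signs turned for few members. Without the 4 libraries C1qc became -0.054 averaged over the sexes, -0.95 in males and 1.79 for the interaction. The only KO male left in that fit was KO male 3, which had the lowest C1qc of the KO libraries. With limma C1qc was 0.024 for the interaction. With 1 library left out, the values in females ranged from -0.31 to 0.41 for Apoe, -0.36 to 0.49 for Lyz2, -0.35 to 0.68 for C1qa and -0.020 to 0.77 for C1qb, the negative ones being those without WT female 3 (Apoe, Lyz2, C1qa) and without KO female 3 (all 4 genes, -0.029, -0.26, -0.24 and -0.020). Fn1 ranged from -0.72 to 0.013 for female minus male (the positive one without KO male 1) and from -0.016 (without KO female 3) to 1.45 for the interaction, and C1qc from -1.17 to 0.11 (without KO male 2) for the interaction. The median r of 0.52 ranged from 0.35 to 0.74 with 1 KO library left out, and was 0.54 with Spearman's rho and 0.54 on the deposited log2 values. Correlations pooled over 12 libraries, centred by group, in WT alone or without the 4 libraries were not run, because the libraries fall into clusters or are too few.

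With the title number as a replicate block, members called fell from 3 to 0 averaged over the sexes and from 2 to 0 in males, and genes from 206 to 9 and from 10 to 0. The numbers did not pair the libraries, since deviations of libraries with the same number had correlations of -0.39 to 0.13 (18 pairs, median -0.05) and 1 of 12 libraries correlated best with its own number. At this depth a gene with 0 counts may be present at up to 0.176 to 0.291 CPM, and members under 1 CPM in WT rest on few counts.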
